A study of Rattus norvegicus with 56 samples.

Results

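Stable acetylated H3K4me3 regions are stretches of the rat genome that carried a peak of H3K4me3 in every untreated brain list and a peak of H3K9ac in every H3K9ac list, and that had no H3K27me3 peak in untreated tissue. They were found by joining the overlapping peaks of the 4 untreated H3K4me3 lists into 56333 regions. Of these, 18912 had a peak in all 4 lists and are called constitutive. Among the constitutive regions, 670 were set aside because they held an H3K4me3 peak of 4000 bp or more in at least 1 list. This left 18242 narrow regions. Among the narrow regions, 9691 overlapped a peak by at least 1 bp in all 6 H3K9ac lists and in none of the 4 untreated H3K27me3 lists. These 9691 regions are the subject here and make up 53.1% of the narrow regions (95% Wilson interval 52.4 to 53.8, counting error over regions only) and 17.2% of all joined regions. They were chosen by peak presence in 14 lists and by H3K4me3 peak width, so the marks that define them are described and not tested.

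The tissue was rat brain after intracerebral haemorrhage, in which blood escapes into the brain. Every group carried the haemorrhage, since no sham or uninjured rats were among the samples used here. The groups were ipsilateral tissue of 21-month rats treated with plasma of 3-month rats, the same tissue treated with plasma of 22-month rats, and untreated ipsilateral and contralateral tissue at 21 and at 13 months. The ipsilateral side is the side of the bleed. The sample labels give the older age as 21 months and the series text as 22 months. Each of the 12 untreated lists pools 2 ChIP libraries and each of the 4 plasma lists comes from 1, and the labels do not say whether libraries came from separate animals. There is therefore 1 list per group and mark, no spread between replicates, and no test of any difference between groups. The tissue holds many cell types, and a mark in more cells cannot be told apart from more of a mark per cell. No cell type marker was checked, since the lists name no genes.

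H3K4me3 is placed on nucleosomes around the start sites of genes that can be transcribed, mostly at CpG islands. Acetylation of H3K9 is laid down by histone acetyltransferases such as GCN5 and PCAF, and at promoters it goes with active transcription. H3K27me3 is written by Polycomb repressive complex 2, and promoters that carry it together with H3K4me3 are called bivalent. Regions with H3K4me3 and H3K9ac and without H3K27me3 are the usual state of promoters of broadly expressed genes. Whether the regions described here lie at promoters was not examined, because the files' coordinates could not be tied to a genome build.

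The H3K4me3 lists were even in number, with 30356 to 35063 peaks from 71.4 to 91.8 M tags kept (1 M is 1000000). Their peaks covered from 27.1 Mb (contralateral, 13 months) to 37.5 Mb (contralateral, 21 months). The H3K9ac lists ranged from 50651 to 123863 peaks and from 19.3 to 99.2 M tags, and the H3K27me3 lists from 37241 to 367061 peaks and from 35.6 to 117.7 M tags. The uneven H3K27me3 lists bear on who is a member. The contralateral list at 21 months, the longest, alone kept out 1155 narrow regions that were otherwise acetylated in all lists. The other 3 untreated H3K27me3 lists alone kept out 120 (ipsilateral, 21 months), 47 (ipsilateral, 13 months) and 17 (contralateral, 13 months). Lack of H3K9ac with plasma of 3-month rats, the shortest H3K9ac list, alone kept out 296 regions without H3K27me3. With 51805 H3K27me3 peaks taken from each untreated list there were 11269 such regions.

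The rest of the narrow regions fell into 3 sets that serve for comparison. H3K27me3 was found in all 4 untreated lists at 3826 of them, called H3K27me3-marked here, and in 1 to 3 lists at 3591. The other 1134 had no H3K27me3 and lacked H3K9ac in at least 1 list, and are called acetylation-poor. Of the 10825 narrow regions free of H3K27me3, 89.5% were acetylated in all 6 lists and so belong to the stable acetylated regions. Among H3K27me3-marked regions 67.9% were acetylated in all 6 lists.

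The width limit of the rule bounds the length of these regions, so their lengths are a description. The median length of stable acetylated regions was 1740 bp, with quartiles of 1229 and 2278 bp and a range of 221 to 6037 bp. Of them, 7268 measured between 1000 and 3000 bp, 5.44% were under 600 bp and 7.65% were over 3000 bp. H3K27me3-marked regions had a median of 1549.5 bp with 62.2% between 1000 and 3000 bp, and acetylation-poor regions had a median of 596 bp. The median was 1582 bp over all narrow and 1626 bp over all constitutive regions. Together the stable acetylated regions covered 17.3 Mb. They held 28.0% to 34.4% of the H3K4me3 peaks of each untreated list and 44.9% to 49.8% of the bases under those peaks. They also held 58.7% to 73.3% of the peaks with a fold of 8 or more, where fold is the authors' enrichment over local background.

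The longest and shortest regions show the range. The longest, at chromosome 5 from 9229974 to 9236010, was 6037 bp and carried several peaks, the widest of 2893 bp. Its summed H3K4me3 width was 5141 bp (ipsilateral) and 5507 bp (contralateral) at 21 months, and 4762 bp (ipsilateral) and 3458 bp (contralateral) at 13 months. The next were 4318 bp at chromosome 1 from 167344622 and 4279 bp at chromosome 2 from 210085979. The region at 167344622 had H3K9ac far beyond its H3K4me3, with summed H3K9ac widths at 21 months of 6336 bp (ipsilateral) and 6814 bp (contralateral), and at 13 months of 7115 bp (ipsilateral) and 8201 bp (contralateral). The shortest were 221 bp at chromosome 18 from 15213067, 235 bp at chromosome 17 from 14128846 and 240 bp at chromosome 3 from 71875524. The second of these was short but strongly marked, with an H3K4me3 fold in ipsilateral tissue of 17.1 at 21 and 24.9 at 13 months, and in contralateral tissue of 33.9 and 26.8.

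The width limit of 4000 bp fell on a sparse tail. Only 212 stable acetylated regions had a peak of 3500 bp or more, the median of the widest peak was 1711 bp, and 277 regions that met every other condition were kept out by it. The 5 nearest inside had widest peaks of 3991, 3993, 3994, 3995 and 3999 bp. The 5 nearest outside had widest peaks of 4008, 4010, 4011, 4012 and 4014 bp.

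Peaks of both active marks covered the middle of most of these regions. The regions were built from H3K4me3 peaks and chosen to overlap H3K9ac, so high coverage near the middle follows largely from the rule. In the untreated lists H3K4me3 covered the middle of 98.8% (ipsilateral) and 99.8% (contralateral) of them at 21 months. H3K9ac covered the middle of 94.7% and 95.01% at the same age and sides. At 1000 bp to the left of the middle H3K4me3 coverage was down to 30.4% (ipsilateral) and 38.0% (contralateral), and H3K9ac coverage to 31.8% (ipsilateral) and 48.6% (contralateral). At 2000 bp H3K4me3 covered 3.97% and 5.20%, while H3K9ac still covered 11.02% and 17.7%, ipsilateral before contralateral. H3K27me3 coverage in the 21-month lists stayed under 2% out to 2000 bp from the middle on either side, and at the middle itself it is 0 by the rule.

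**Figure D1:**
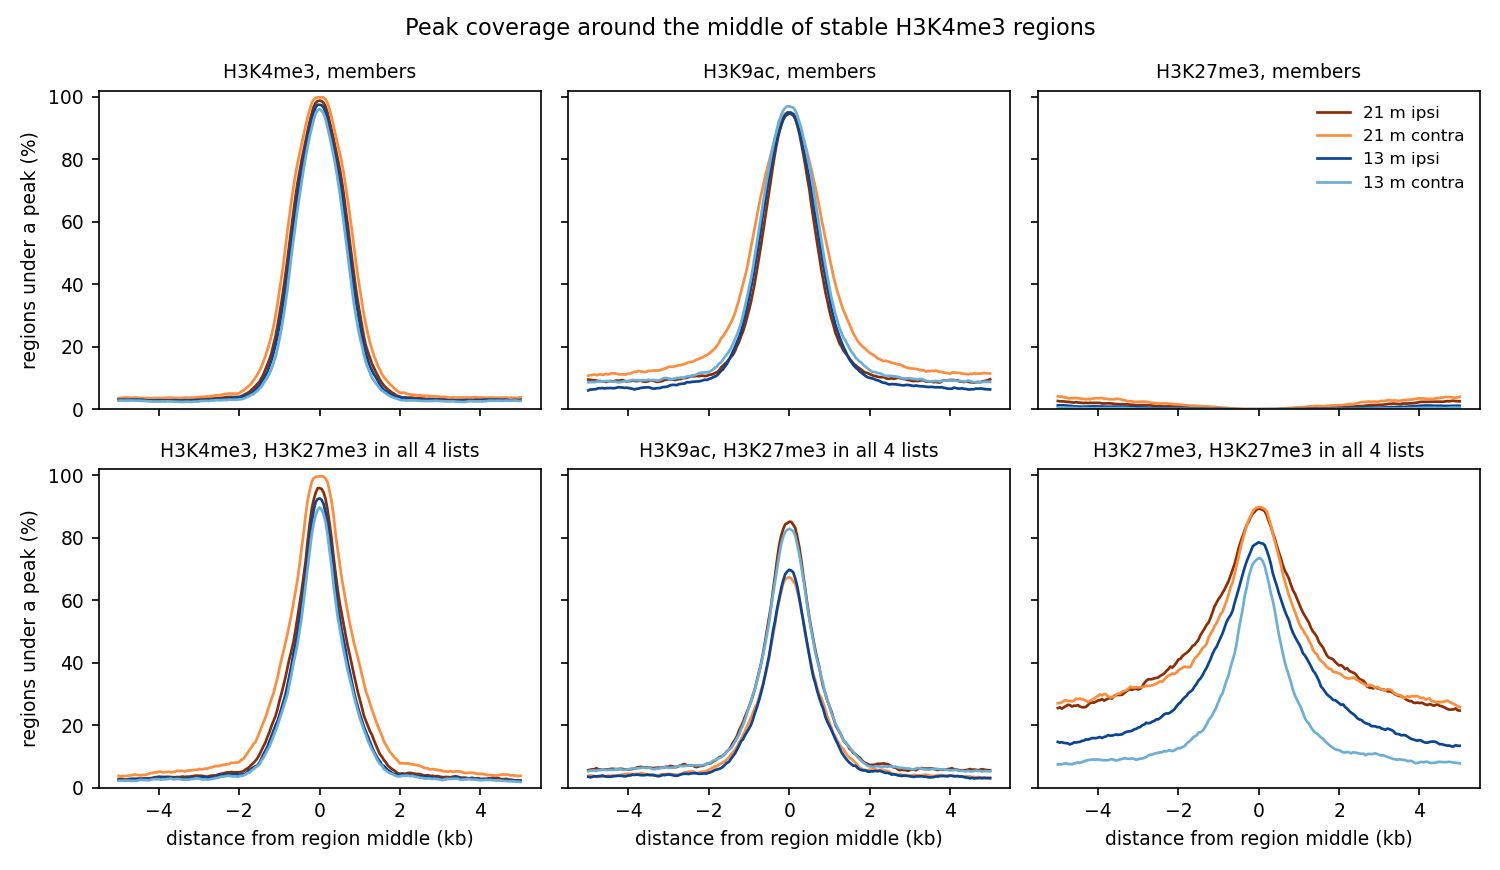
Share of regions under a peak (y axis, percent) against distance from the region middle (x axis, kb), for stable acetylated regions (members, top row) and regions with H3K27me3 in all 4 lists (bottom row), one line per untreated list. In the top row H3K4me3 and H3K9ac reach over 90% at the middle, while H3K27me3, set to 0 there by the rule, reaches 4.15% at most at 5 kb to the left, in the 21-month contralateral list, whereas in the bottom row H3K27me3 spreads past 2 kb on both sides.

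The summits, the points of highest signal in each peak, lay close together. The H3K9ac summit was a median of 38 bp (ipsilateral) and 48 bp (contralateral) from the H3K4me3 summit at 21 months, and 70 bp and 56 bp at 13 months. The H3K4me3 summits of the 4 lists spanned a median of 54 bp within a region, and 69.97% of regions had them within 100 bp. H3K9ac summits of the 6 lists, plasma lists included, spanned a median of 218 bp, and 22.2% of regions had them within 100 bp. A span can only grow as lists are added, so the values of the 2 marks are not directly comparable. The H3K4me3 summit fell outside the H3K9ac peaks in 0.506% to 1.66% of the regions, depending on the list. Close summits were not particular to this set. In H3K27me3-marked regions with an H3K9ac peak the median distance was 49 bp (ipsilateral) and 62 bp (contralateral) at 21 months, and 106 bp and 78 bp at 13 months.

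The rule keeps untreated H3K27me3 peaks off these regions, so only the size of the distance is described. The nearest H3K27me3 peak of any untreated list lay a median of 6.95 kb away, and 5.84% of stable acetylated regions had one within 1 kb. For acetylation-poor regions, kept free of H3K27me3 by the same rule, the median was 4.15 kb and 22.4% had one within 1 kb. Taking each list alone, the median distance at 21 months was 15.7 kb on the ipsilateral and 7.84 kb on the contralateral side, and at 13 months 32.8 kb and 46.1 kb. With 51805 peaks from each list the medians were 50.9 kb and 42.3 kb at 21 months and 51.2 kb and 46.1 kb at 13 months, ipsilateral before contralateral, so the 4 medians lay closer together with equal peak numbers.

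The H3K27me3 lists of plasma-treated tissue were not used to choose the regions and give a measure from other libraries. They held 37241 peaks (plasma of 3-month rats) and 51178 peaks (plasma of 22-month rats). The untreated lists that kept regions out held 51805 to 367061 peaks, and the rule also asked for H3K9ac with both plasmas. How far this choice fixes a low share was not tested. An H3K27me3 peak was present at 2 stable acetylated regions with plasma of 3-month rats and at 2 others with plasma of 22-month rats. Over all constitutive regions, H3K27me3-marked ones included, these shares were 15.7% and 11.8%, and 17.3% had a peak in either list. The stable acetylated regions thus had 4 of 9691 in either list, or 0.0413% (95% Wilson interval 0.0161 to 0.106), and 0 of 9691 in both, which allows up to 0.0396% by the same interval. Among H3K27me3-marked regions 71.6% had a peak in either plasma list and 44.5% in both, against 10.2% in both over all constitutive regions. Acetylation-poor regions, equally free of H3K27me3 in untreated tissue but not required to have H3K9ac with either plasma, had 2.29% in either list. Taking 51805 H3K27me3 peaks per untreated list to choose the regions gave 0.275% in either list. Leaving the 21-month ipsilateral, 21-month contralateral or 13-month ipsilateral H3K27me3 list out of the choice gave 0.102%, 0.0830% and 0.0719%.

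The 4 regions with H3K27me3 after plasma were of modest length. With plasma of 3-month rats they lay at chromosome 3 from 67327437 to 67328297 (H3K27me3 fold 3.83) and chromosome 15 from 96815232 to 96816803 (fold 3.60). With plasma of 22-month rats they lay at chromosome 2 from 38718983 to 38719696 (fold 3.36) and chromosome 7 from 59040141 to 59041240 (fold 4.93). Their lengths were 861, 1572, 714 and 1100 bp in that order. In 3 of the 4 the H3K9ac peaks were narrower than the H3K4me3 peaks, with median width ratios of 0.793, 0.620 and 0.573, and in the region on chromosome 2 the ratio was 1.18. Narrower H3K9ac was common in the whole set. In single untreated lists H3K9ac was the wider mark in 42.5% to 78.9% of stable acetylated regions.

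Along the chromosomes the stable acetylated regions were unevenly spread. Of them, 9680 lay on assembled chromosomes and 11 on unplaced scaffolds. Autosomes held 3.57 per Mb, with chromosome length taken as the highest peak end in any list. Chromosome 10 was the densest with 7.51 per Mb, followed by chromosome 12 with 6.62 per Mb, and chromosome 2 was the sparsest autosome with 2.30 per Mb. Density of H3K27me3-marked regions went with it across the 20 autosomes (Spearman 0.84, a description over chromosomes that share the same lists). The share of narrow regions that were stable acetylated varied far less, from 46.6% on chromosome 17 to 60.2% on chromosome 12.

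**Figure D2:**
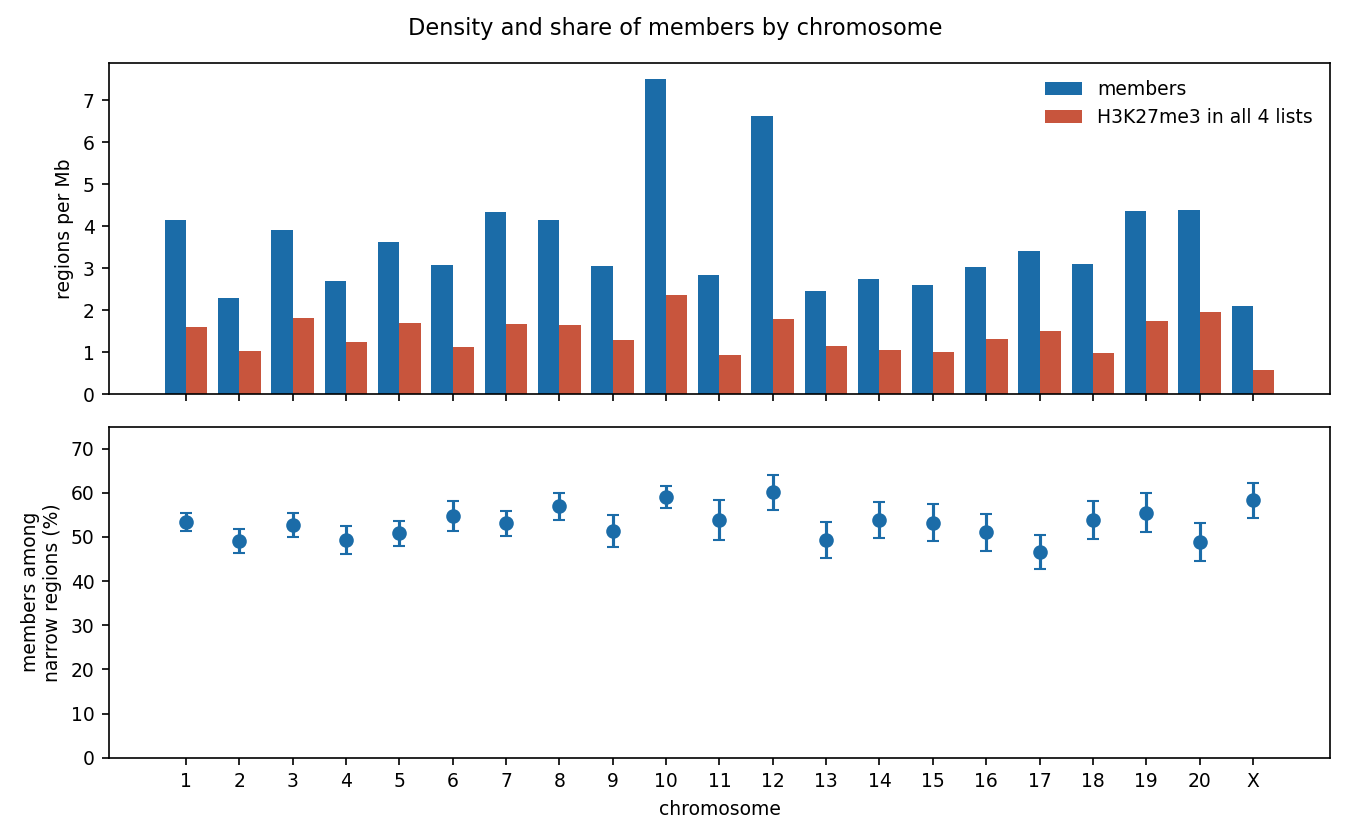
Top, regions per Mb (y axis) on each autosome and X (x axis) for stable acetylated regions (members) and regions with H3K27me3 in all 4 lists. Bottom, the share of narrow regions that are members with 95% Wilson intervals over regions. Density differs 3.26-fold among autosomes while the share stays between 46.6% and 60.2%.

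The X chromosome had 337 stable acetylated regions, or 2.11 per Mb, 0.591 times the autosomal density. All narrow regions together were at 0.537 times and H3K27me3-marked regions at 0.3997 times the autosomal density. Among the narrow regions of the X 58.3% were stable acetylated, 15.7% H3K27me3-marked and 10.2% acetylation-poor, against 53.0%, 21.2% and 6.07% on autosomes. The Y chromosome had 7 narrow regions, and all 7 were stable acetylated.

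Stable acetylated regions on the X also had higher H3K4me3 folds than those on autosomes, as did H3K27me3-marked and acetylation-poor regions. The median fold at 21 months was 17.9 on X and 12.4 on autosomes in ipsilateral tissue, and 24.99 and 16.6 in contralateral tissue. At 13 months it was 14.3 and 10.2 in ipsilateral tissue, and 13.4 and 9.89 in contralateral tissue. In each of these 4 lists the X median was above that of every autosome, by 1.33-fold to 1.47-fold over the highest. H3K9ac did not follow one direction. Its median fold on X and autosomes was 9.16 and 7.56 (ipsilateral) and 6.68 and 5.44 (contralateral) at 21 months, but 9.46 and 10.96 (ipsilateral) and 9.95 and 10.6 (contralateral) at 13 months. With plasma of 3-month rats it was 5.13 on X and 4.96 on autosomes, and with plasma of 22-month rats 8.58 and 10.6. H3K4me3 widths were alike on X and autosomes, with medians of 1502 and 1540 bp in ipsilateral tissue at 21 months. The higher H3K4me3 fold on X was not particular to stable acetylated regions. In ipsilateral tissue at 21 months H3K27me3-marked regions had median folds of 7.90 on X and 6.78 on autosomes. Acetylation-poor regions had 6.42 and 4.84, and both sets were higher on X in every H3K4me3 list.

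In windows of 1 Mb the regions gathered in a minority of places. Of 2792 windows, 33.5% held no stable acetylated region and the median window held 2. The 266 windows with 10 or more held 41.8% of the regions, and 357 windows (12.8%) were enough to hold 50% of them. The variance of the count per window was 6.77 times its mean, against 2.50 times for the less numerous H3K27me3-marked regions and 8.57 times for all narrow regions. For H3K27me3-marked regions 13.7% of windows were enough to hold 50%. The fullest window, chromosome 7 from 11000001 to 12000000, held 42 of them among 60 narrow regions. Next came chromosome 1 from 198000001 and chromosome 7 from 12000001 with 38 each, chromosome 1 from 101000001 with 35 and chromosome 2 from 198000001 with 33. These windows differed in H3K27me3. The window at chromosome 1 from 198000001 had 1 H3K27me3-marked region and the second window on chromosome 7 had 18.

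Crowded windows had a larger share of stable acetylated regions. In windows with 1 to 4 narrow regions 38.1% of those were stable acetylated and 27.3% H3K27me3-marked. With 5 to 9 narrow regions the shares were 47.6% and 23.3%, with 10 to 19 they were 56.5% and 19.8%, and with 20 or more they were 61.5% and 17.1%. The windows numbered 967, 705, 509 and 154 in that order.

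At the other end, 141 stretches of more than 3 Mb had no stable acetylated region. The longest ran on chromosome 13 from 1949126 to 25655811, over 23.7 Mb that held 11 narrow regions, 3 of them H3K27me3-marked. The next were 15.2 Mb on chromosome 2 from 62888401 to 78102759 with 16 narrow regions, and 13.0 Mb on chromosome 14 from 46183812 to 59179563 with 5.

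Neighbouring stable acetylated regions lay a median of 27.2 kb apart (quartiles 8.48 and 74.5 kb), counted from each region to the nearest other one. H3K27me3-marked regions, which are fewer, lay a median of 114.1 kb from the next of their kind. Within 1 kb there were 8.49% of stable acetylated regions with another of their kind and 8.91% of H3K27me3-marked regions. Within 10 kb the shares were 28.0% and 19.96%, and within 50 kb they were 66.5% and 35.4%. The sets thus had like shares at the closest range and parted beyond 1 kb, with the difference in number of regions included in those values.

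**Figure D3:**
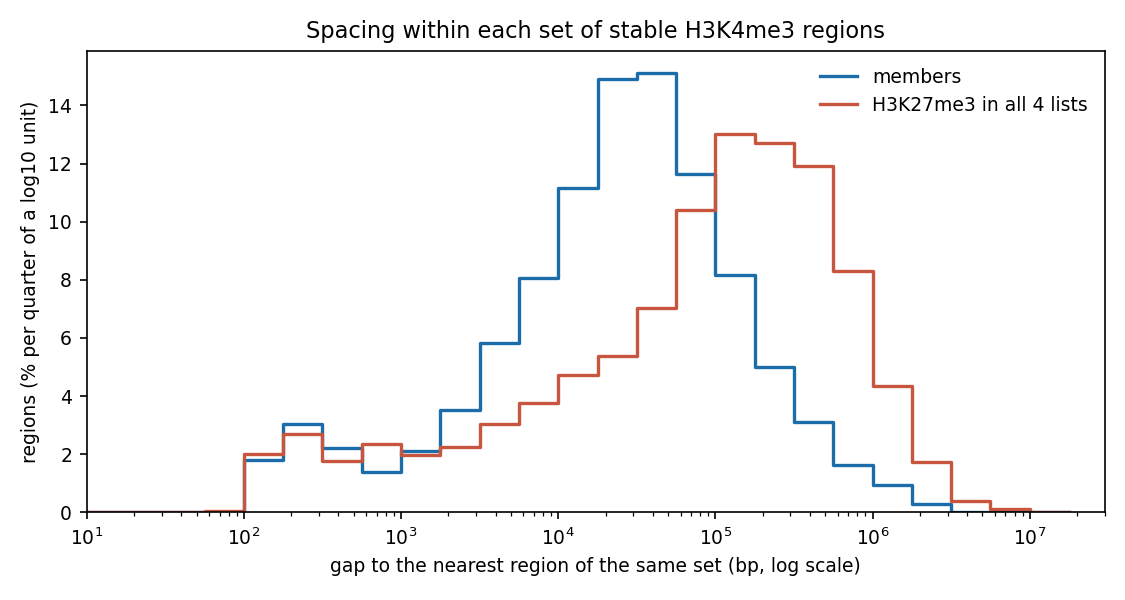
Share of regions (y axis, percent per bin) by the gap to the nearest region of the same set (x axis, bp, log scale), for stable acetylated regions (members) and regions with H3K27me3 in all 4 lists. Both sets have a low shoulder under 1 kb. The main peak lies between 10 and 100 kb for members and above 100 kb for the other set.

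What lay nearest did not mirror the make-up of the narrow regions. The nearest narrow region of any kind was another stable acetylated region for 66.2% of them, whereas they form 53.1% of narrow regions. Where that neighbour was within 5 kb the share was 74.7%, and 4.02% of neighbours were H3K27me3-marked. Beyond 50 kb the shares were 52.8% and 19.9%, close to the make-up of 53.1% and 21.0%. H3K27me3-marked regions showed a like pattern with their own kind, which was the nearest neighbour for 63.7% within 5 kb and 26.4% beyond 50 kb.

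The closest pairs were separate in the joined H3K4me3 lists by a few bases to about 0.1 kb. The smallest gap was 10 bp, on chromosome 7 between regions ending at 120154063 and starting at 120154074. The next were 110 bp on chromosome 4 at 89280058 and 115 bp on chromosome 10 at 56531678. The closest pair was unsteady in width, since its summed H3K4me3 widths differed 6.10-fold and 5.36-fold between the widest and narrowest list. The pair on chromosome 10 was steadier, with 1.21-fold and 1.32-fold. Joined at gaps of up to 10 kb, the longest chain held 16 regions on chromosome 17 from 43755533 to 43836627. At gaps of up to 50 kb it held 31, again on chromosome 17, from 43626433 to 43947125. The most isolated region lay at chromosome 13 from 1947602 to 1949125, 23.7 Mb from the next one on that chromosome. Its ipsilateral H3K4me3 fold was 9.22 at 21 and 10.4 at 13 months, and its contralateral fold 26.6 at 21 and 11.7 at 13 months.

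Mark width was measured as the summed length of the peaks of a list that touch a region. H3K4me3 widths had medians of 1537 bp (ipsilateral) and 1689 bp (contralateral) at 21 months, and 1460 bp and 1373 bp at 13 months. The contralateral list at 21 months was the widest for 76.6% of the regions, and the contralateral list at 13 months was the narrowest for 64.1%. H3K9ac widths had medians of 1536 bp with plasma of 3-month rats and 1928 bp with plasma of 22-month rats. In untreated tissue they were 1448 bp (ipsilateral) and 1836 bp (contralateral) at 21 months, and 1555 bp and 1651 bp at 13 months. The H3K9ac list with plasma of 22-month rats was the widest of the 6 for 40.7% of the regions.

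**Figure D4:**
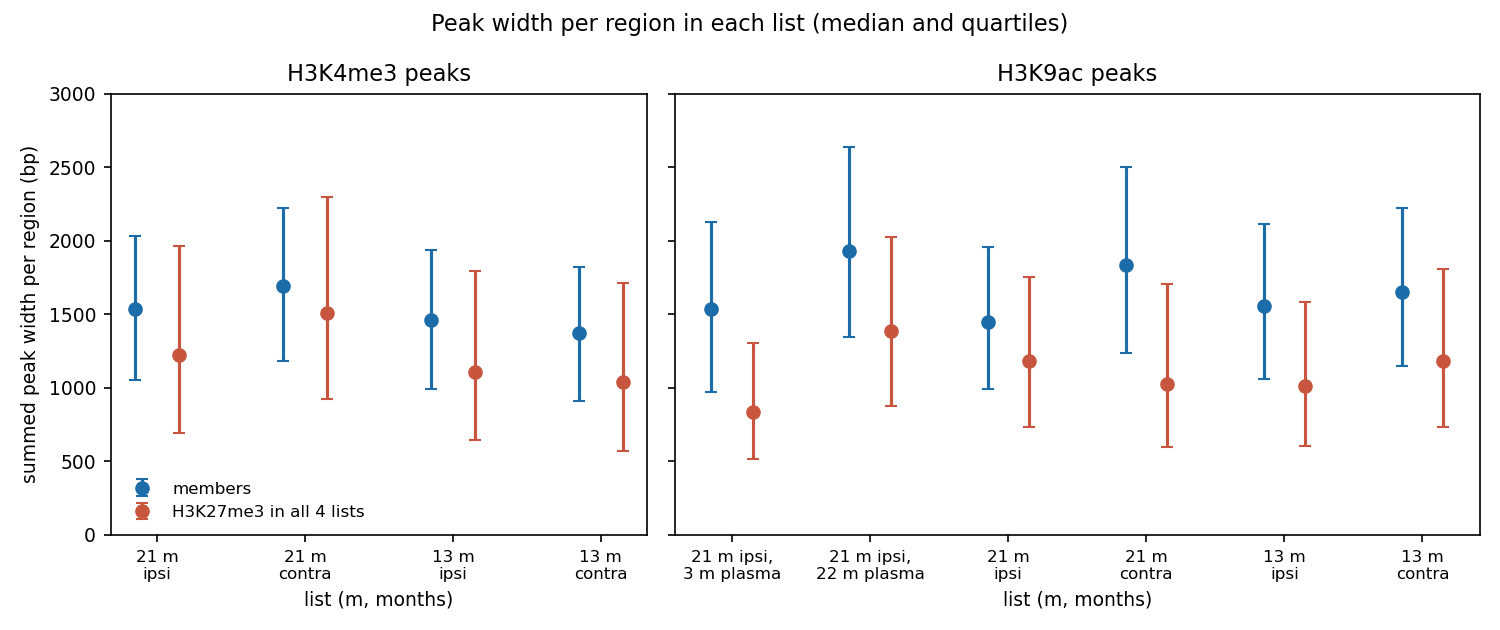
Summed peak width per region (y axis, bp; points are medians, bars quartiles) in each list (x axis) for H3K4me3 (left) and H3K9ac (right), in stable acetylated regions (members) and regions with H3K27me3 in all 4 lists that have a peak. Members are wider at the median in every list, from 1373 to 1689 bp for H3K4me3 and from 1448 to 1928 bp for H3K9ac. Only members had to have H3K9ac in all 6 lists. In the 2598 regions of the other set that also had it, H3K4me3 medians at 21 months exceeded those of members, at 1563.5 bp (ipsilateral) and 1818 bp (contralateral). At 13 months they were below those of members, at 1412 and 1345.5 bp, and so were the H3K9ac medians in every list.

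Within a region H3K4me3 width varied less between lists than H3K9ac width. The rule limits the width of H3K4me3 peaks and not of H3K9ac peaks, and the H3K9ac lists were less even in depth and peak number. The part of either in the spread was not tested. The widest list exceeded the narrowest by a median of 1.28-fold for H3K4me3 over 4 lists and 1.51-fold for H3K9ac over the 4 untreated lists, and 1.75-fold over all 6 H3K9ac lists. For 78.7% of the stable acetylated regions the 4 H3K4me3 widths stayed within 1.5-fold, and 2.22% varied by more than 3-fold. H3K27me3-marked regions had a median H3K4me3 spread of 1.49-fold, with 50.5% within 1.5-fold.

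H3K9ac and H3K4me3 peaks were of about equal width. The median ratio of H3K9ac to H3K4me3 width was 0.953 (ipsilateral) and 1.06 (contralateral) at 21 months, and 1.07 and 1.19 at 13 months. H3K9ac reached past both edges of the H3K4me3 peaks in 26.9% and 37.7% of regions at 21 months and in 39.9% and 57.6% at 13 months, ipsilateral before contralateral. The caller's fragment length was 180 to 227 bp in H3K9ac lists and 133 to 153 bp in H3K4me3 lists, which also sets the shortest peak each list can hold. Its part in the ratios was not tested. The extremes were weak H3K4me3 peaks under wide H3K9ac. At chromosome 1 from 82116440 to 82117313 H3K4me3 folds at 21 months were 2.18 (ipsilateral) and 3.55 (contralateral), against 2.69 and 3.12 on those sides at 13 months, and H3K9ac was 19.5 times as wide as H3K4me3 at the median of the 4 groups. The regions at chromosome 1 from 198928252 and from 134945146 had ratios of 12.01 and 10.97.

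The most strongly marked regions differed between the marks. Ranked by their lowest H3K4me3 fold, 3 of the 5 highest lay on the X. The region at X from 71411674 to 71413219 had an H3K4me3 fold of 33.0 (ipsilateral) and 30.6 (contralateral) at 21 months, and on those sides at 13 months 28.3 and 28.1. Its H3K9ac fold was above the median of the set in both untreated 21-month lists, at 9.85 (ipsilateral) and 6.68 (contralateral). It was below the median elsewhere, at 3.81 with plasma of 3-month rats, 10.1 with plasma of 22-month rats, and 8.88 (ipsilateral) and 6.05 (contralateral) at 13 months. A region of 287 bp at chromosome 5 from 76386836 to 76387122 was also among the 5, with an ipsilateral fold of 29.7 at 21 and 27.8 at 13 months, and a contralateral fold of 25.7 at 21 and 31.3 at 13 months. The other 3 of the 5 began at X 29524730, X 63290279 and chromosome 2 28369159. Ranked by their lowest H3K9ac fold, the highest was at X from 105834308 to 105836170. Its H3K9ac folds were 11.6 with plasma of 3-month rats, 11.1 with plasma of 22-month rats, 16.8 (ipsilateral) and 13.8 (contralateral) at 21 months, and likewise 23.4 and 22.4 at 13 months. No region was among the 5 highest of both lists. The other 4 of the H3K9ac list began at chromosome 12 6955383, X 113658291, chromosome 1 29215179 and chromosome 12 47437547.

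The shortest regions had lower folds and varied more in H3K4me3 width between lists. In the shortest length group (221 to 1229 bp) the lowest of the 4 H3K4me3 folds had a median of 5.87, against 9.23, 9.69 and 9.49 in the longer length groups. The widest of the 4 H3K4me3 lists exceeded the narrowest by a median of 1.42-fold in the shortest length group and by 1.25-fold, 1.25-fold and 1.26-fold in the others. The H3K9ac to H3K4me3 width ratio was 1.22 in the shortest length group and 1.07, 1.049 and 1.046 in the others. The shortest length group also had the nearest neighbours, at a median of 20.4 kb, and the longest length group the farthest, at 35.3 kb. Across regions the lowest H3K4me3 and lowest H3K9ac folds went together (Spearman 0.46 over 9691 regions that share the same lists).

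For the side of the bleed, a region was counted as changed when its summed width differed 1.5-fold between lists. Here and below, only regions with a peak in both lists were counted. At 21 months 0.341% of stable acetylated regions were at least 1.5-fold wider for H3K4me3 in ipsilateral than in contralateral tissue and 5.17% were narrower, against 0.862% and 10.4% over all constitutive regions. At 13 months 4.90% were wider and 1.10% narrower, against 9.05% and 2.65%. The shares of stable acetylated regions were thus below those over all constitutive regions in each direction and at each age, and the balance tipped opposite ways at the 2 ages. In their shortest length group 12.3% were wider at 13 months and 14.4% narrower at 21 months, against at most 3.46% and 3.30% in the longer ones. Regions under 1000 bp made up 17.4% of stable acetylated and 26.3% of all constitutive regions. The part of length in the lower shares was not tested. The median ratio over stable acetylated regions was 0.920 at 21 months and 1.052 at 13 months. Their median H3K4me3 fold was 12.5 (ipsilateral) and 16.8 (contralateral) at 21 months, and 10.3 and 9.96 at 13 months. The part of enrichment in these widths was not tested. Centring widths on the median over all constitutive regions gave 0.588% wider and 2.94% narrower at 21 months. Leaving a 21-month H3K4me3 list out of the choice of regions raised the wider share at 21 months to 0.608% (ipsilateral list) and the narrower share to 10.2% (contralateral list). Leaving out the contralateral list at 13 months gave 0.526% wider. Keeping only peaks with a −log10 q of 5 or more gave 0.165% wider at 21 months and 0.710% narrower at 13 months.

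H3K9ac was mostly narrower in ipsilateral than in contralateral tissue. At 21 months 4.13% of stable acetylated regions were at least 1.5-fold wider and 27.7% narrower. The shares were 11.1% and 21.7% over the 17335 constitutive regions with an H3K9ac peak in both lists. At 13 months 4.15% of stable acetylated regions were wider and 11.2% narrower, against 5.23% and 16.3% over 17155 such constitutive regions. Centred widths gave 6.03% of stable acetylated regions wider and 20.04% narrower at 21 months, and 6.55% and 7.63% at 13 months. Only stable acetylated regions had to have H3K9ac in all 6 lists. The part of this rule in their differences from constitutive regions was not tested. H3K27me3-marked regions had the other balance at 21 months. Of those with an H3K9ac peak in both lists, 29.9% were wider and 6.55% narrower. Of the 2598 H3K27me3-marked regions that were acetylated in all 6 lists, 25.2% were wider and 6.24% narrower. No test of that difference is possible with 1 list per group. The 21-month lists had 66.9 M (ipsilateral) and 99.2 M (contralateral) tags kept. Duplicates made up 22.1% of ipsilateral and 13.0% of contralateral ChIP tags. Median H3K9ac folds of these lists in stable acetylated regions were 7.60 (ipsilateral) and 5.47 (contralateral). In the 13-month pair the ipsilateral list kept 19.3 M tags, against 46.3 M for the contralateral list. Their duplicates were 81.8% and 54.6%, and their median folds 10.9 and 10.6, ipsilateral before contralateral. The part of depth, duplicates and enrichment in the widths was not tested.

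The narrowing of H3K9ac at 21 months was larger in long regions. The median log2 ratio of ipsilateral over contralateral width was -0.12 in the shortest length group and -0.26, -0.33 and -0.37 in the longer ones. The same H3K9ac comparison at 13 months had medians of -0.10, -0.07, -0.07 and -0.07. At both ages 290 stable acetylated regions (2.99%) were 1.5-fold narrower and 39 (0.402%) wider, against 2.82% and 0.902% over all constitutive regions, so the narrower share was close to the share over all of them. Single regions differed far more than the median. At chromosome 7 from 12428703 to 12431322 H3K9ac measured 13724 bp in ipsilateral and 2636 bp in contralateral tissue at 21 months. In the other lists it measured 1330 bp with plasma of 3-month rats, 5089 bp with plasma of 22-month rats, and 2418 bp and 4279 bp at 13 months. In the other direction, at chromosome 11 from 15859144 to 15859878, H3K9ac was 604 bp in ipsilateral and 6156 bp in contralateral tissue at 21 months, and between 546 and 889 bp elsewhere.

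Age was compared within a side, but the headers place the aligned reads of the 21-month and 13-month lists in different folders, and age cannot be told apart from whatever differed between those. On the contralateral side 15.8% of stable acetylated regions were at least 1.5-fold wider for H3K4me3 at 21 than at 13 months and 0 of 9691 were narrower, against 25.6% and 0.19% over all constitutive regions. By any amount 97.6% were wider, at a median ratio of 1.23, against 97.4% and 1.27 over all constitutive regions. The median H3K4me3 fold of stable acetylated regions on that side was 16.8 at 21 and 9.96 at 13 months. Its part in the widths was not tested. On the ipsilateral side 3.41% were wider and 0.856% narrower, against 6.84% and 1.91%. Centred widths gave 5.35% wider and 0.165% narrower on the contralateral side, and 2.66% and 1.21% on the ipsilateral side. With a −log10 q of 5 or more the ipsilateral shares were 2.48% and 0.442%. The region with the largest H3K4me3 ratio between ages on the ipsilateral side was also the one with the smallest ipsilateral to contralateral ratio at 13 months. At chromosome 7 from 70724070 to 70726573 H3K4me3 was 2221 bp (ipsilateral) and 2504 bp (contralateral) at 21 months, and 507 bp and 1794 bp at 13 months. The ipsilateral list at 13 months, with 507 bp, enters both of its ratios.

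H3K9ac differed between ages in opposite directions on the 2 sides. On the ipsilateral side 7.71% of stable acetylated regions were at least 1.5-fold wider at 21 than at 13 months and 11.8% narrower. The shares were 14.1% and 9.85% over the 17176 constitutive regions with an H3K9ac peak in both lists. On the contralateral side 13.3% of stable acetylated regions were wider and 4.98% narrower, against 11.7% and 10.9% over 17347 such constitutive regions. H3K27me3-marked regions had the reverse balance on both sides, with 31.0% wider and 3.98% narrower on the ipsilateral and 4.22% wider and 27.8% narrower on the contralateral side. All of these comparisons share lists with those of the sides. The rule asked for H3K9ac in the lists compared in stable acetylated regions only, and its part in the differing shares was not tested. The ipsilateral list at 13 months had the fewest tags kept of all, 19.3 M, and its part was not tested.

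Plasma treatment was compared through H3K9ac in ipsilateral tissue at 21 months, with 1 library per plasma list. Stable acetylated regions, unlike the other constitutive regions, were chosen to have H3K9ac in each list compared. How far this choice sets their shares apart was not tested. With plasma of 3-month rats 1.87% of stable acetylated regions were at least 1.5-fold wider than with plasma of 22-month rats and 29.1% were narrower. The shares were 1.75% and 38.4% over the 16303 constitutive regions with an H3K9ac peak in both lists. Of all 18912 constitutive regions, 16452 had a peak with plasma of 3-month rats and 18267 with plasma of 22-month rats. Centred widths gave 10.3% of stable acetylated regions wider and 13.5% narrower. The lists had 57.4 and 56.1 M tags kept for plasma of 3-month and 22-month rats, and 50651 and 123863 peaks. The median H3K9ac fold in stable acetylated regions was 4.96 with plasma of 3-month rats and 10.5 with plasma of 22-month rats. Among H3K27me3-marked regions 63.4% were narrower with plasma of 3-month rats.

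The plasma lists were also set against untreated ipsilateral tissue, whose aligned reads lie in another folder and which pools 2 libraries. With plasma of 22-month rats 31.4% of stable acetylated regions were wider and 1.51% narrower. The shares were 27.2% and 2.79% over the 17861 constitutive regions with an H3K9ac peak in both lists. Centred widths gave 12.9% of stable acetylated regions wider and 4.68% narrower. These comparisons share lists with the one between plasmas, and the same limit from the choice of regions holds for them. With plasma of 3-month rats 16.3% of stable acetylated regions were wider and 13.9% narrower, against 12.3% and 23.8% over 16183 such constitutive regions. The balance of the last comparison turned with 51805 H3K27me3 peaks per list, to 15.1% wider and 16.0% narrower. Single regions moved far in each direction. At chromosome 3 from 162573735 to 162575672 H3K9ac measured 6865 bp with plasma of 22-month rats, 1594 bp with plasma of 3-month rats and 858 bp in untreated ipsilateral tissue at 21 months. At chromosome 14 from 83337214 to 83338415 it measured 794 bp with plasma of 3-month rats and 6864 bp with plasma of 22-month rats, while untreated tissue had 1303 and 1308 bp at 21 months.

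**Figure D5:**
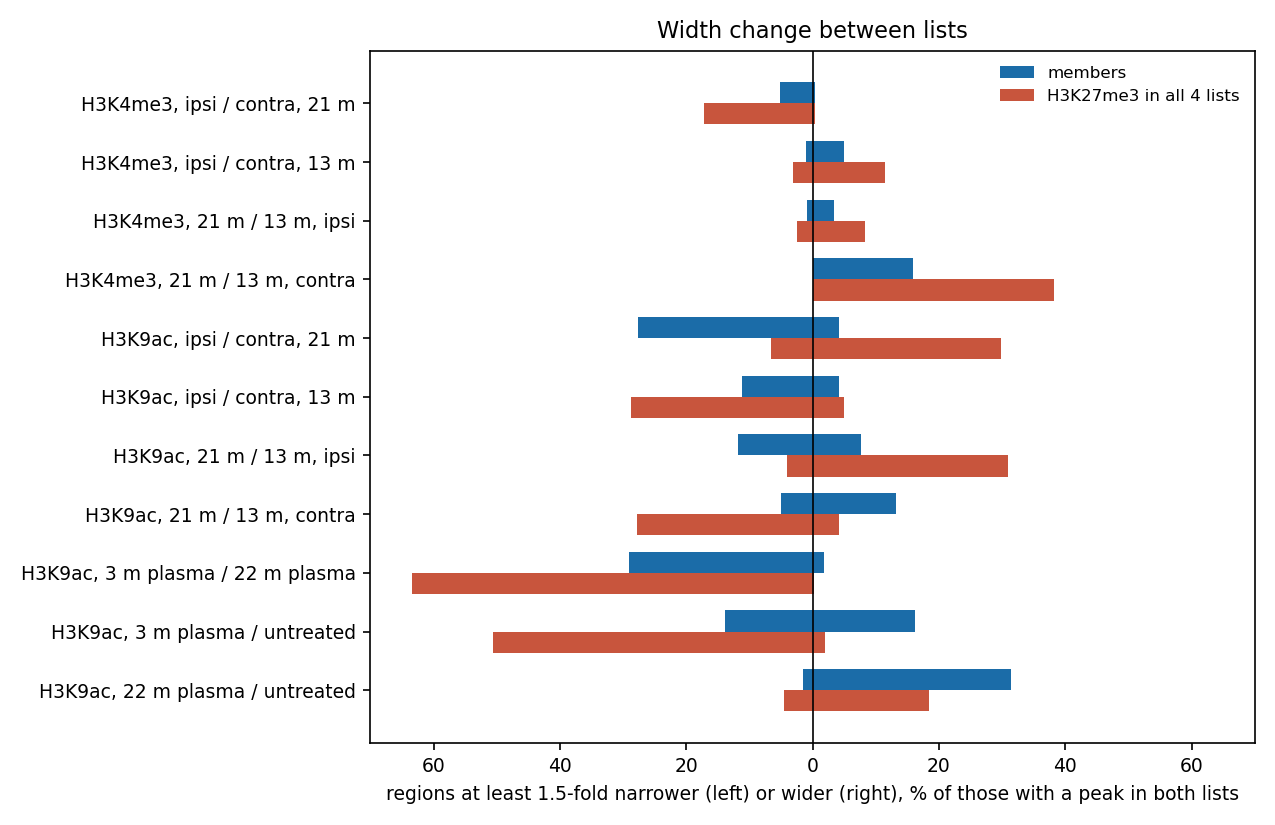
Share of regions (x axis, percent of those with a peak in both lists) that were at least 1.5-fold narrower (left of 0) or wider (right of 0) in the first list than in the second, for each comparison (rows), in stable acetylated regions (members) and regions with H3K27me3 in all 4 lists. For H3K9ac at 21 months, ipsilateral against contralateral, members reach 27.7% on the narrower side and the other set 29.9% on the wider side.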

How the data were processed

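ChIP-seq peak lists of H3K4me3, H3K9ac and H3K27me3 from 28 ChIP and 28 input libraries were used, in 16 lists. Libraries were sequenced on a NextSeq 500 after ThruPLEX preparation, per the labels' protocols, and cutadapt, Bowtie2 and HOMER are named in the submitters' processing notes. Peaks were called by the authors with MACS 2.1.1.20160309 at a q-value cutoff of 0.05, keeping no more than 1 tag at a position, as read per the file headers. Their genome build was not given in the sources used here. No gene was assigned, and coordinates are those deposited, 1-based. The deposited lists give the pileup (a signal, not used), the fold enrichment (a ratio over local background) and the −log10 q-value, all by the authors. Folds are not corrected for list depth. Peak length and summit position are the authors' values.

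Peaks were joined and overlapped in Python 3.11.15 (numpy 2.4.6, pandas 2.3.3, scipy 1.17.1), and the code was checked on simulated lists. Tags kept per list and the fragment length are from the headers. Shares have 95% Wilson intervals, which cover counting error over regions only; no test was run, since each group has 1 list. The members, sets and comparisons were chosen with earlier results of these data known. The width comparisons across age on the contralateral side, those of each plasma with untreated tissue, and centring were added after the data were seen. Named regions are extremes: the 5 highest by lowest fold of each mark, the 3 longest, shortest, closest and most isolated, the fullest windows and longest empty stretches, and the most changed regions with at least 500 bp in both lists. Of these, examples are given. The rule for genes was not applied.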

Additional observations from a re-analysis of the deposited data

Results flagged for a closer look

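In stable acetylated regions the median log2 ratio of H3K4me3 width, ipsilateral over contralateral, was -0.121 at 21 months and 0.0738 at 13 months, which are opposite directions. Over all constitutive regions, of which these regions form 51.2%, the medians were -0.15 and 0.07. The values of these regions were thus near those over all constitutive regions. The difference between the ages was not tested, and the aligned reads of the ages lay in different folders.

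The median log2 ratio of H3K9ac width, 21 over 13 months, was -0.0830 on the ipsilateral side and 0.115 on the contralateral side in the same regions. The medians were 0.00106 and 0.0360 over constitutive regions with an H3K9ac peak in both lists. The difference between the sides was not tested.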

How the results depend on the processing

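No paired analysis was possible because each list pools the libraries of its group, so no value belongs to a numbered replicate. Of 287 values recomputed for the main results, 233 stayed within the interval of the reported value (for the number of members, within 1.5 times), 54 moved outside it and 0 turned direction. With an overlap of at least 200 bp all 14 stayed within it.

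With a −log10 q of 5 or more there were 9718 members, 57.6% of narrow regions, with a median length of 1799.5 bp and a width ratio of 1.06; the wider shares for the sides were 0.165% (H3K4me3, 21 months), 3.79% (H3K4me3, 13 months) and 3.70% (H3K9ac, 13 months), and 2.48% for H3K4me3 by age on the ipsilateral side. Of 69 named regions 45 stayed members. With equal numbers of H3K27me3 peaks there were 11269 members, 61.8% of narrow regions, a median spacing of 25036 bp and 0.275% with plasma H3K27me3; wider shares were 4.90% (H3K9ac side, 21 months), 5.54% (H3K4me3 side, 13 months), 3.79% and 8.47% (H3K4me3 and H3K9ac by age, ipsilateral). The comparison of plasma of 3-month rats with untreated tissue turned, with 15.1% wider and 16.0% narrower. With the 4 untreated H3K9ac lists the members were 55.0% of narrow regions with a median length of 1708.5 bp, and the same 4 wider shares were 4.63%, 5.63%, 3.99% and 8.34%. Without a width limit the median length was 1761.5 bp. With peaks up to 500 bp apart joined it was 1859 bp, the spacing 31393 bp, and the wider shares for the side in H3K9ac were 3.52% (21 months) and 3.58% (13 months).

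Centred widths, chosen after seeing the data, gave wider shares for the sides of 0.588% (21 months) and 4.004% (13 months) for H3K4me3 and 6.03% and 6.55% for H3K9ac, 2.66% for H3K4me3 by age on the ipsilateral side, and 10.3% for plasma of 3-month over 22-month rats.

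Leaving out each of the 14 lists in turn gave 9704 to 10846 members and 50.6% to 59.5% of narrow regions. The median length was 1576 to 1744 bp, the spacing 25019 to 27335 bp, the X ratio 0.557 to 0.600, the width ratio 1.07 to 1.08 and the plasma H3K27me3 share 0.0408% to 0.102%. Wider shares for the sides were 0.327% to 0.608% and 4.75% to 5.57% for H3K4me3 at 21 and 13 months, and 4.12% to 4.71% and 4.14% to 4.71% for H3K9ac. By age on the ipsilateral side they were 3.32% to 3.88% (H3K4me3) and 7.70% to 8.30% (H3K9ac), and for the plasmas 1.78% to 2.03%.

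Depth and enrichment differ between lists, and their part in peak widths was not tested. Among untreated lists, H3K27me3 calls were more numerous at 21 than at 13 months, while both plasma lists had fewer than either 13-month list. A region without a peak is one in which none was called at that depth.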
